A study of Vitis vinifera with 12 samples.

Results

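The binding events examined here lie near the ends of the 19 numbered grapevine chromosomes. An event is a position at which a deposited list places the binding of a transcription factor. An event was counted as near an end when its position was at most 2 Mb from the first base of a chromosome or within 2 Mb of the highest event end that any of 7 lists gives for that chromosome. This rule took 7874 of 44889 events. Another 35483 events lay in the rest of the numbered chromosomes, and 1532 lay on chr00, a sequence left out of all comparisons. The end zones covered 76 of 458.28 Mb (16.6%), and the chromosomes spanned 18.7 to 34.5 Mb. Position and length alone chose the members, so strength, sharing and density were free to vary.

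The lists come from DNA affinity purification sequencing (DAP-seq), in which a tagged factor retains fragments of naked genomic DNA that are then sequenced. The factors were CARPO (also labelled NAC60), NAC33 and NAC03 of Vitis vinifera, each HALO-tagged and made in rabbit reticulocyte lysate, and all DNA was from the cultivar Syrah. The lists were CARPO on leaf DNA labelled 500, CARPO on leaf DNA labelled 1000, CARPO on berry DNA labelled 500, NAC33 with the same 3 combinations, and NAC03 on leaf DNA labelled 500. They are written below as CARPO 500 leaf, CARPO 1000 leaf, CARPO 500 berry and so on, because the titles give the number without a unit. CARPO 500 leaf and NAC33 500 leaf were each called from 2 replicates together, and every other list from 1 library. The source labels give young leaf or berry, while the growth text names leaf for the berry samples as well. Of the 12 samples, the 3 HALO-GST controls came without event lists and were not analysed here.

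NAC proteins are a plant-specific family of transcription factors that bind DNA through a conserved N-terminal NAC domain. Members are known for roles in senescence, organ maturation, fruit ripening and stress responses. In plant chromosomes, genes are commonly denser along the arms, and repeats are commonly denser around the centromere. Naked DNA carries neither nucleosomes nor the proteins of a living chromosome end, so DAP-seq reads the affinity for sequence and DNA methylation rather than occupancy in a tissue. The first base and the last event were taken as chromosome ends, and how near they are to a telomere is not given in the sources used here. Low-coordinate and high-coordinate are directions of the assembly's numbering and carry no biological meaning of their own.

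CARPO and NAC03 events, and NAC33 events on leaf DNA, were slightly denser near chromosome ends than in the rest. CARPO 500 leaf had 2672 end events, or 35.2 per Mb, against 30.5 per Mb in the rest, a ratio of 1.15 (95% interval 1.10 to 1.20). CARPO 1000 leaf had 1625 end events, at 21.4 per Mb near ends and 18.997 per Mb in the rest, a ratio of 1.13 (1.07 to 1.19). CARPO 500 berry had 648, at 8.53 and 7.77 per Mb, a ratio of 1.10 (1.01 to 1.19). All 3 CARPO intervals, which cover counting error only, lay above 1, but for CARPO 500 berry a −log10 q of at least 4 gave a ratio of 0.971.

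NAC33 500 leaf had 1009 end events, at 13.3 per Mb near ends and 12.2 per Mb in the rest, a ratio of 1.09 (1.02 to 1.16). NAC33 1000 leaf had 1071, at 14.1 and 13.1 per Mb, a ratio of 1.08 (1.01 to 1.15). NAC33 500 berry was the only list with fewer events per Mb near ends, with 108 events, 1.42 per Mb near ends and 1.53 per Mb in the rest. Its ratio of 0.932 (0.752 to 1.15) had an interval that spanned 1, and end zones of 1 Mb gave it a ratio of 1.13. NAC03 500 leaf had 741 end events, at 9.75 and 8.73 per Mb, a ratio of 1.12 (1.03 to 1.21). The intervals are exact Clopper-Pearson intervals of the share of events in the end zones. They cover counting error only and take events as independent of each other. Over the 38 ends, the variance of the counts was 6.38, 5.30 and 2.83 times the mean for CARPO 500 leaf, 1000 leaf and 500 berry. It was 1.74 times for NAC33 500 leaf, 2.35 for NAC33 1000 leaf and 4.91 for NAC03, where counting error alone would give 1. In those lists the intervals are therefore too narrow, and a lower limit just above 1 does not set a ratio apart from 1. In NAC33 500 berry the variance was 0.562 times the mean. With 1 list per condition, no spread between replicates could be set against the intervals.

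The 3 CARPO lists had a mean ratio of 1.12 ± 0.027 and the 3 NAC33 lists one of 1.03 ± 0.088 (SD over 3 lists each, which are different conditions and not replicates). The difference of 0.0917 gave an exact two-sided permutation p of 0.1, the smallest that 3 lists against 3 allow. With end zones of 1 Mb the sign turned, with a difference of -0.00664 (exact permutation p = 0.8). At a −log10 q of at least 4 the difference was 0.0037 (exact permutation p = 1). With every list cut to its strongest events, as many as the shortest list holds, the ratios were 0.997 for CARPO 500 leaf, 1.02 for CARPO 1000 leaf, 0.899 for CARPO 500 berry, 0.899 for NAC33 500 leaf, 0.930 for NAC33 1000 leaf, 0.932 for NAC33 500 berry and 1.17 for NAC03. The difference between CARPO and NAC33 lists was then 0.0512 (exact permutation p = 0.4).

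**Figure D1:**
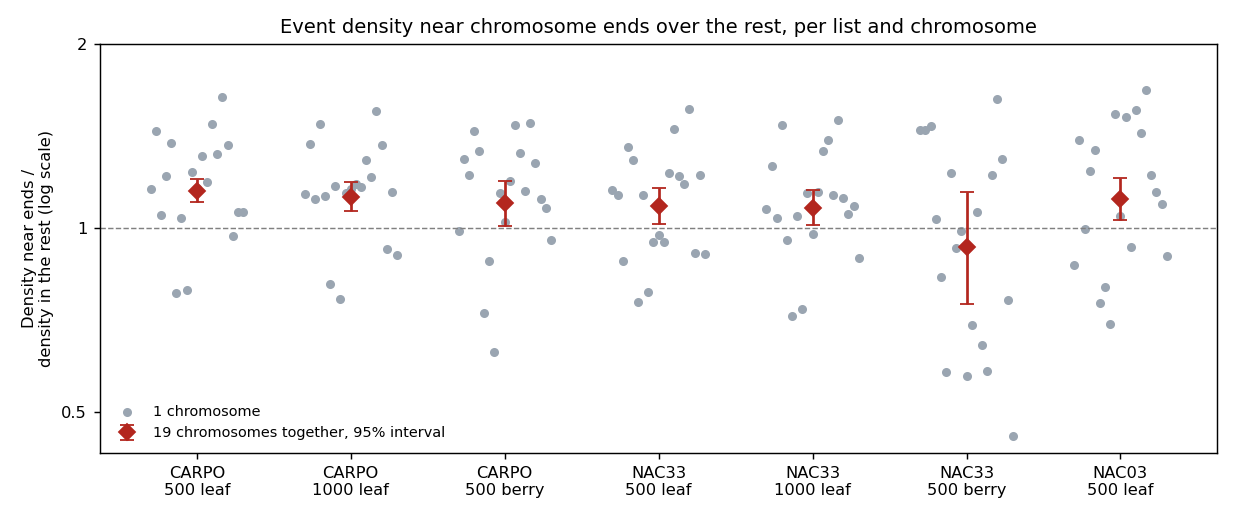
Event density near chromosome ends divided by that in the rest, on a log axis, for the 7 lists. Grey points are the 19 chromosomes, and red diamonds are all chromosomes together with 95% counting intervals; the diamonds run from 0.932 for NAC33 500 berry to 1.15 for CARPO 500 leaf, within a wider scatter of single chromosomes.

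Single chromosomes differed by more than the lists did, with a larger counting error for each. CARPO 500 leaf was denser near ends on 16 of 19 chromosomes, and its ratios ran from 0.783 to 1.64. The number of such chromosomes was 15 for CARPO 1000 leaf, 14 for CARPO 500 berry, 11 for NAC33 500 leaf, 14 for NAC33 1000 leaf, 9 for NAC33 500 berry and 12 for NAC03 500 leaf. Chromosomes 2, 4, 15 and 16 had a ratio above 1 in all 7 lists, with a median over lists of 1.37, 1.35, 1.50 and 1.37. Chromosomes 6 and 8 had a ratio below 1 in all 7 lists, with medians of 0.753 and 0.766. The other 13 chromosomes were above 1 in some lists and below it in others. The lists read the same genome, so agreement between them is not independent for each list.

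With both sides of the chromosomes pooled, the density near ends belonged to a broad outer region rather than to the last 2 Mb. Relative to its average over the numbered chromosomes, CARPO 500 leaf had a density of 1.12 at 0 to 2 Mb from the nearer end, 1.12 at 2 to 4 Mb, 1.12 at 4 to 6 Mb and 1.07 at 6 to 8 Mb. It was 0.846 at 8 to 10 Mb and 0.732 farther in. NAC03 500 leaf had 1.10 in the end zones, 1.23, 1.16 and 1.06 in the next 3 steps of 2 Mb, 0.785 at 8 to 10 Mb and 0.686 farther in. The end zones were as dense as the neighbouring 2 to 6 Mb in CARPO 500 leaf, after rounding, and sparser than them in NAC03. In both lists most of the outer excess lay on the low-coordinate side. In steps of 0.5 Mb out to 8 Mb, CARPO 500 leaf ran from 1.09 to 1.36 on that side. On the high-coordinate side it ran from 0.740 to 1.07. NAC03 ran from 1.11 to 1.77 on the low-coordinate and from 0.686 to 1.16 on the high-coordinate side.

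NAC33 500 leaf had a relative density of 1.07 in the end zones, 0.944 at 8 to 10 Mb and 0.848 farther in, and NAC33 1000 leaf had 1.07, 0.888 and 0.774. NAC33 500 berry had 0.942 in the end zones, 0.892 at 8 to 10 Mb and 1.04 farther in, so its density was not lowest in the middle of the chromosomes.

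The ratio was lower against the nearby chromosome than against the deep interior in every list. Against only the 2 to 8 Mb next to the end zones, the ratio was 1.02 for CARPO 500 leaf, 1.0 for CARPO 1000 leaf, 0.944 for CARPO 500 berry, 0.974 for NAC33 1000 leaf and 0.953 for NAC03 500 leaf, and 1.02 for NAC33 500 leaf. Against the chromosome more than 8 Mb from an end, it was 1.43, 1.38, 1.44, 1.29 and 1.49 for the same lists, and 1.20 for NAC33 500 leaf. NAC33 500 berry lay below 1 in both, at 0.908 and 0.970. These 2 comparisons were chosen after the data were seen. The density of genes and repeats along these chromosomes was not analysed here, so whether it moves with these values was not tested.

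**Figure D2:**
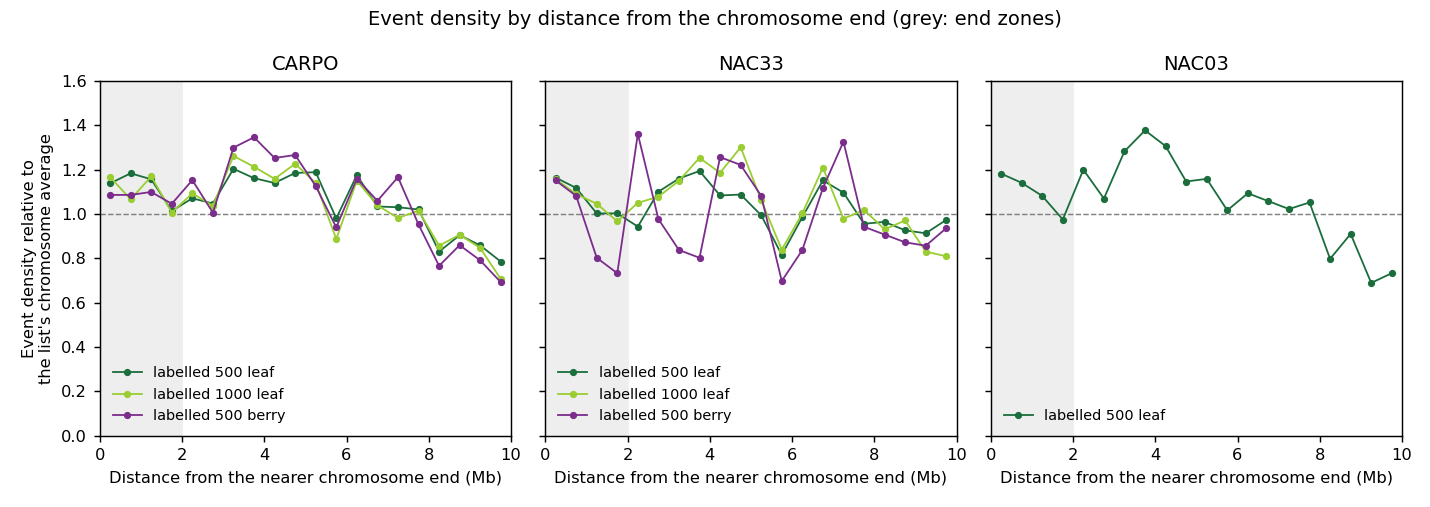
Event density in steps of 0.5 Mb from the nearer chromosome end, low-coordinate and high-coordinate sides pooled, relative to each list's average over the numbered chromosomes (dashed line at 1), with the end zones in grey. CARPO, NAC33 leaf and NAC03 lists lie near or above 1 out to about 8 Mb, apart from lower values at 5.5 to 6 Mb in several of them, and lower beyond; NAC33 500 berry, with 108 end events, has no steady course.

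Low-coordinate ends held more events than high-coordinate ends, by a margin within counting error in NAC33 500 leaf and NAC33 500 berry. Except in NAC33 500 berry, this excess was not confined to the end zones. CARPO 500 leaf had 1497 events near low-coordinate ends (39.4 per Mb) and 1175 near high-coordinate ends (30.9 per Mb), which is 1.27 times as many. The same quotient was 1.32 for CARPO 1000 leaf (926 and 699 events) and 1.55 for CARPO 500 berry (394 and 254 events). NAC03 500 leaf had the widest gap, with 464 and 277 events (1.68 times). NAC33 had 516 and 493 events in 500 leaf (1.05 times), 591 and 480 in 1000 leaf (1.23 times), and 55 and 53 in 500 berry (1.04 times). The low-coordinate end was the denser one on 15 of 19 chromosomes for CARPO 500 leaf and NAC03 500 leaf, on 14 for CARPO 1000 leaf, CARPO 500 berry and NAC33 1000 leaf, and on 11 for NAC33 500 leaf. For NAC33 500 berry it was denser on 7, sparser on 6 and tied on 6.

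Against the rest of the chromosomes, low-coordinate ends alone gave a ratio of 1.29 for CARPO 500 leaf, 1.28 for CARPO 1000 leaf, 1.33 for CARPO 500 berry, 1.19 for NAC33 1000 leaf and 1.40 for NAC03 500 leaf. High-coordinate ends alone gave 1.01, 0.968, 0.860, 0.968 and 0.835 for the same lists. NAC33 500 leaf had 1.11 at low-coordinate and 1.06 at high-coordinate ends, and NAC33 500 berry 0.949 and 0.915. The split was also made after the data were seen. The rest holds both sides of the chromosomes, and the ends of either side were not tested against the 2 to 8 Mb next to them.

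The number of events per end differed widely among the 38 ends in the longer lists. An end held 34 to 107 CARPO 500 leaf events (median 70), 17 to 80 CARPO 1000 leaf events (median 40.5) and 6 to 31 CARPO 500 berry events (median 15). It held 14 to 41 NAC33 500 leaf events (median 26), 14 to 42 NAC33 1000 leaf events (median 27), 1 to 6 NAC33 500 berry events (median 3) and 4 to 43 NAC03 events (median 17). The variance over the ends was 6.38 times the mean for CARPO 500 leaf and 4.91 times for NAC03, but 1.74 times for NAC33 500 leaf and 0.562 times for the sparse NAC33 500 berry list. Equal variance and mean would be counting error alone. At a given relative spread this quotient grows with the mean count, which was 70.3 for CARPO 500 leaf and 19.5 for NAC03. The lists therefore cannot be ranked by it. The ends of NAC33 500 berry showed no spread beyond counting error, but with a mean of 2.84 events a modest relative spread would not be seen.

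By the mean relative density over the 7 lists, the densest end was the low-coordinate end of chromosome 18, at 1.72. It held 104 CARPO 500 leaf, 70 CARPO 1000 leaf and 31 CARPO 500 berry events, 34 NAC33 500 leaf, 40 NAC33 1000 leaf and 4 NAC33 500 berry events, and 43 NAC03 events. The low-coordinate end of chromosome 5 followed at 1.66, with 102 CARPO 500 leaf, 37 NAC33 500 leaf and 37 NAC03 events. The low-coordinate end of chromosome 2 came next at 1.59, with 107 CARPO 500 leaf, 29 NAC33 500 leaf and 34 NAC03 events. NAC03 stood highest at all 3 ends except for CARPO 1000 leaf on chromosome 2, with relative densities of 2.41, 2.08 and 1.91.

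The sparsest end was the low-coordinate end of chromosome 15, at 0.567, with 34 CARPO 500 leaf, 16 NAC33 500 leaf and 11 NAC03 events. The high-coordinate end of chromosome 17 was next, at 0.582. There the lists differed, with 34 CARPO 500 leaf events (relative density 0.543) and 4 NAC03 events (0.225), but 23 NAC33 500 leaf events (0.929) and 22 NAC33 1000 leaf events (0.832). The high-coordinate end of chromosome 3, at 0.588, held 37 CARPO 500 leaf, 14 NAC33 500 leaf and 6 NAC03 events.

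The sparsest and the fifth densest end were the opposite ends of chromosome 15, whose high-coordinate end had a mean relative density of 1.54. On chromosome 17 the low-coordinate end was at 1.57 and the high-coordinate end at 0.582. In all, 6 ends lay above the average in every list, 4 of them low-coordinate, and 11 lay below it in every list, 8 of them high-coordinate.

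**Figure D3:**
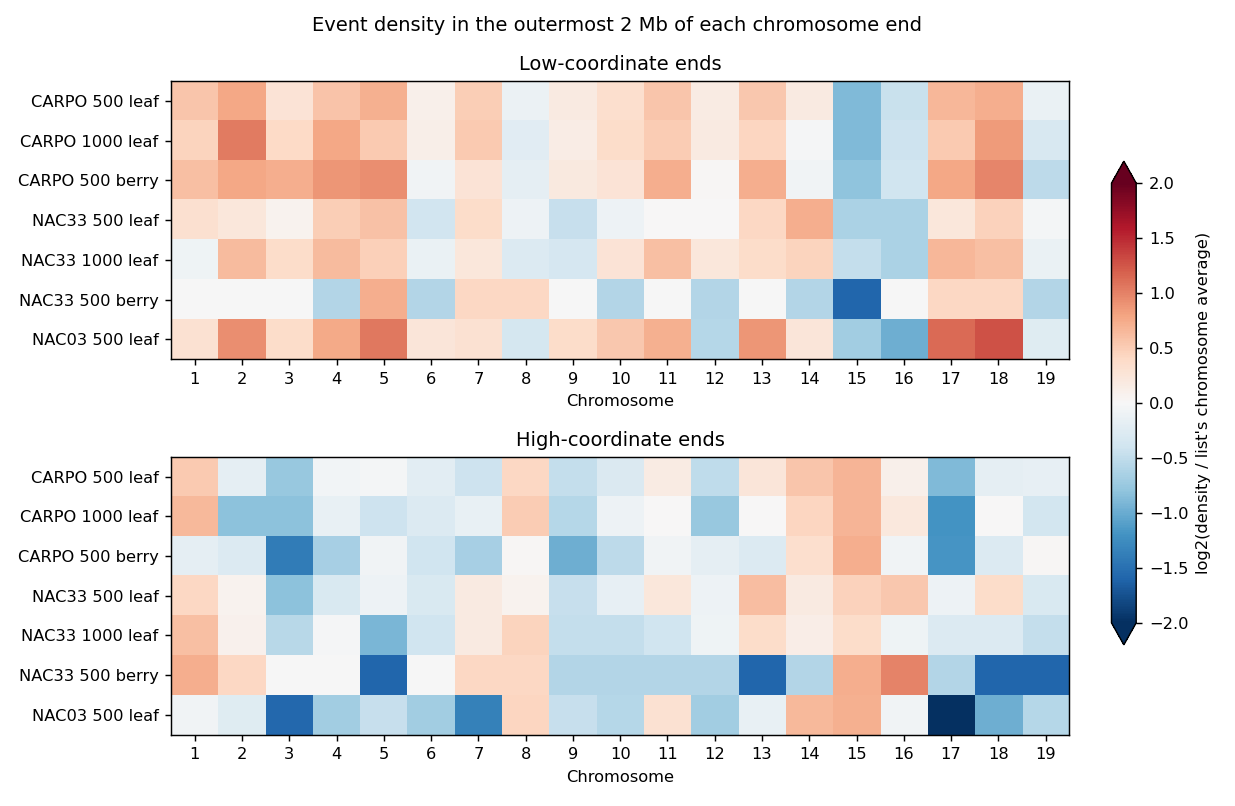
Heat map of event density in the outermost 2 Mb of the 38 chromosome ends (columns, by chromosome) in the 7 lists (rows), as log2 of density over the list's chromosome average; colours saturate at 2 either way. Low-coordinate ends are mostly red and high-coordinate ends mostly blue in the CARPO and NAC03 rows. On chromosomes 8, 14, 15 and 16 the high-coordinate end is the denser one in all of those rows.

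The end zones were not extreme as 2 Mb windows go. Cutting the rest of each chromosome into whole 2 Mb windows gave 184. The median relative density was 1.12 over ends and 0.847 over inner windows for CARPO 500 leaf, 1.05 and 0.929 for NAC33 500 leaf, 0.995 and 0.995 for NAC33 500 berry, and 0.955 and 0.786 for NAC03. Yet 17 inner windows were denser than the densest end in CARPO 500 leaf, and over the 7 lists this number ran from 6 for NAC03 to 21 for NAC33 1000 leaf.

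Over the 38 ends, the density of the CARPO lists varied together, with a Pearson r of 0.842 to 0.942 between them. NAC03 followed the CARPO lists with an r of 0.836 to 0.913. For NAC33 500 leaf the r was 0.538 to 0.649 with the CARPO lists, 0.523 with NAC03 and 0.668 with NAC33 1000 leaf. The same pairs of NAC33 500 leaf had an r of 0.777 to 0.795, 0.794 and 0.808 over the 184 inner windows. NAC33 1000 leaf had higher values over the ends, 0.717 to 0.8001 with the CARPO lists and 0.741 with NAC03. NAC33 500 berry had an r of 0.324 to 0.421 with the other lists over the ends. Counting error lowers an r, and it takes up more of the spread over ends in the NAC33 lists. The variance was 1.74 times the mean for NAC33 500 leaf, 2.35 for NAC33 1000 leaf and 0.562 for NAC33 500 berry. It was 6.38 for CARPO 500 leaf, 5.30 for CARPO 1000 leaf, 2.83 for CARPO 500 berry and 4.91 for NAC03. CARPO 500 berry, whose quotient was close to that of NAC33 1000 leaf, had an r of 0.842 to 0.913 with the other CARPO lists and NAC03. How much of the lower r comes from counting error was not tested. The ends of all lists share the same DNA sequence, so these values are descriptions without a test, and the difference between ends and inner windows was not tested.

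The strength ranks of events near ends were close to those of the rest in 6 of the 7 lists. Strength is the authors' value for an event, used here only for ranks within a list, where percentile 100 is the strongest. The median percentile near ends and in the rest was 49.3 and 49.3 for CARPO 500 leaf, 49.0 and 49.9 for CARPO 1000 leaf, and 48.9 and 48.9 for CARPO 500 berry. It was 49.0 and 50.3 for NAC33 500 leaf, 50.8 and 48.3 for NAC33 1000 leaf, and 49.3 and 49.3 for NAC03. Many events share a strength value, which is why some medians coincide. NAC33 500 berry showed the widest gap, 39.9 near ends and 49.8 in the rest, but ranking by the p-value column put its end events 0.205 percentile points above the rest.

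Each list was also split into 5 classes of strength. The strongest class held 18.8% of the CARPO 500 leaf end events (95% interval 17.4% to 20.4%) and 19.7% of the rest. It held 16.05% of the CARPO 500 berry end events (13.3% to 19.1%) and 19.2% of the rest. For NAC33 1000 leaf the second class held a larger share near ends, with 23.3% (20.8% to 26.0%) against 19.8% in the rest, and the strongest class was not, with 18.5% and 19.3%. Density near ends over that in the rest was 1.10 in the strongest and 1.19 in the weakest class of CARPO 500 leaf, and 1.06 and 1.24 for CARPO 1000 leaf. For NAC33 500 leaf it was 1.05 and 1.11, and for NAC03 1.15 and 1.09.

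Among the strongest 100 events of a list, those on numbered chromosomes were near an end in 16 of 80 cases for CARPO 500 leaf (20.0%, 95% interval 11.9% to 30.4%) and in 15 of 64 for NAC33 1000 leaf (23.4%, 13.8% to 35.7%). The lowest share was 10 of 70 for NAC33 500 berry (14.3%, 7.07% to 24.7%). In all 7 lists the interval held the 16.6% of chromosome length that the end zones cover. It also held the list's own share of events near ends, which ran from 15.6% for NAC33 500 berry to 18.6% for CARPO 500 leaf.

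**Figure D4:**
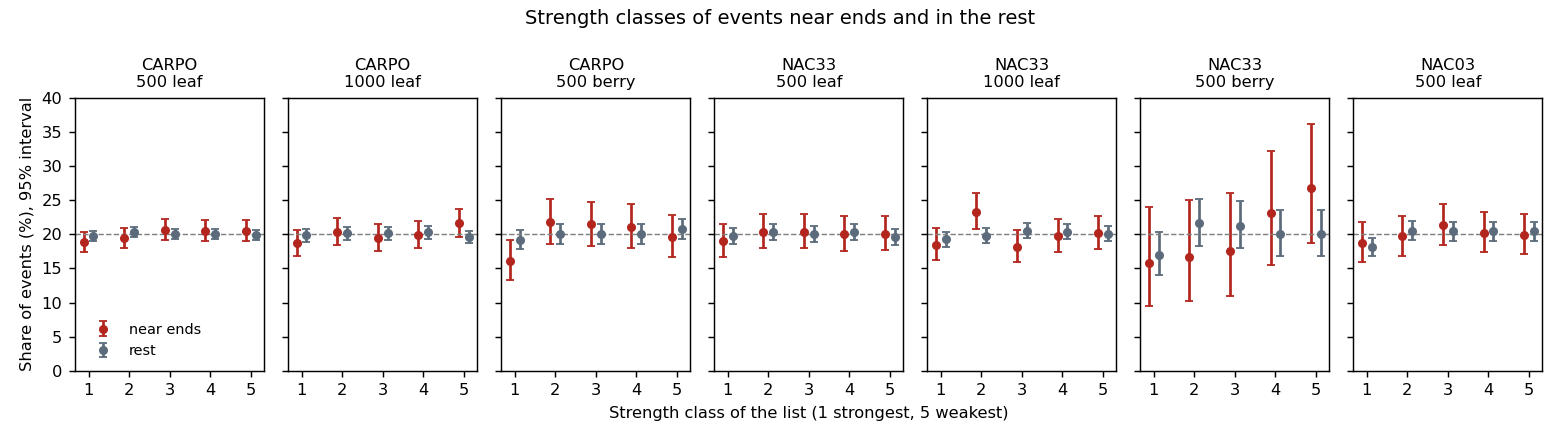
Share of events in 5 strength classes of each list (1 strongest) for events near ends (red) and in the rest (grey), with 95% counting intervals; the dashed line is at 20%. The red and grey intervals overlap in every class, and by the least in the second class of NAC33 1000 leaf, with 23.3% near ends and 19.8% in the rest.

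Events near ends recurred in other lists about as often as events in the rest. A partner is an event of another list within 100 bp. Of the 1625 CARPO 1000 leaf end events, 1240 had a partner in CARPO 500 leaf (76.3%, 95% interval 74.2% to 78.4%), against 76.0% of the rest and 76% of all events of that list on numbered chromosomes. Of the 648 CARPO 500 berry end events, 562 had a partner in CARPO 500 leaf (86.7%, 83.9% to 89.2%), against 86.1% of the rest, with a background of 86.2%.

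For NAC33, 389 of 1009 end events of 500 leaf had a partner in 1000 leaf (38.6%, 35.5% to 41.6%), against 39.6% of the rest, with a background of 39.4%. On berry DNA, 50 of 108 NAC33 end events had a partner in NAC33 500 leaf (46.3%, 36.7% to 56.2%), against 49.1% of the rest and a background of 48.6%. Both NAC33 shares were lower near ends, and both intervals held the value of the rest.

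Between factors, 549 of 741 NAC03 end events had a CARPO 500 leaf partner (74.1%, 70.8% to 77.2%), against 72.5% of the rest and 72.8% overall. NAC33 500 leaf had a CARPO 500 leaf partner for 227 of 1009 end events (22.5%, 20.0% to 25.2%), against 20.8% of the rest and 21.1% overall. NAC03 had a NAC33 500 leaf partner for 173 of 741 end events (23.3%, 20.3% to 26.6%), against 22.0% of the rest and 22.3% overall. The 7 shares near ends thus lay close to their backgrounds.

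**Figure D5:**
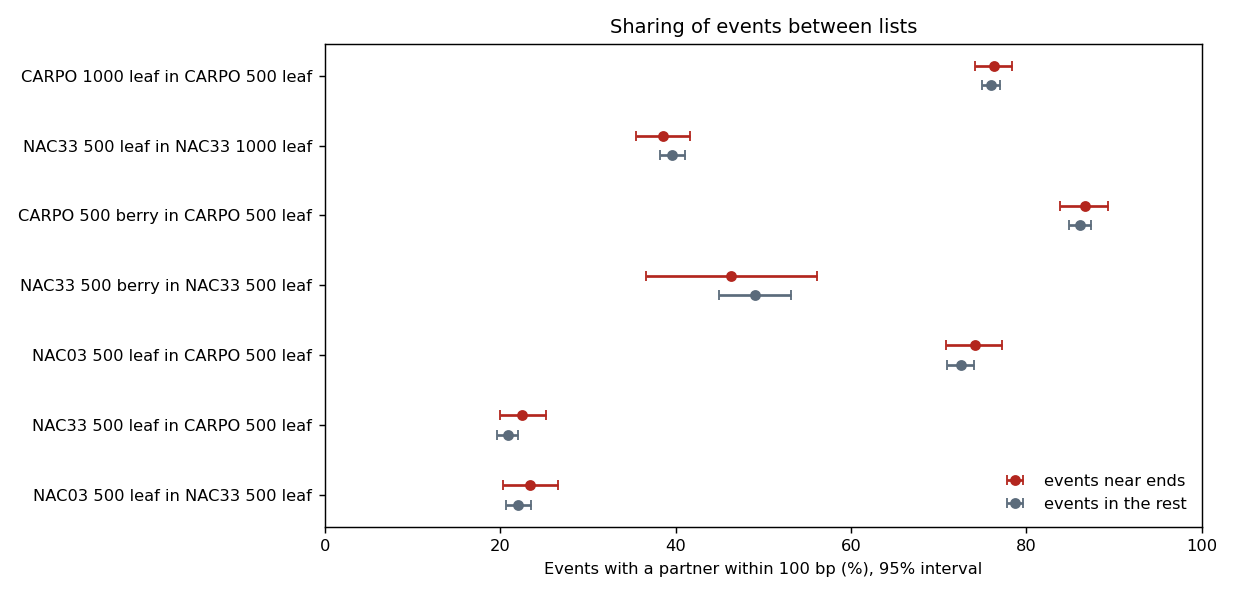
Share of events with a partner within 100 bp, in percent with 95% counting intervals, for events near ends (red) and in the rest (grey) in 7 pairs of lists. The red and grey intervals overlap in every pair, from 22.5% and 20.8% for NAC33 500 leaf in CARPO 500 leaf to 86.7% and 86.1% for CARPO 500 berry in CARPO 500 leaf.

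Sharing was also compared within the 5 strength classes. Of the 35 differences, 22 were higher near ends and 13 were lower. In the strongest class of CARPO 1000 leaf, 97.7% of the end events and 97.9% of the rest had a CARPO 500 leaf partner, and in the weakest 42.7% and 45.8%. For NAC33 500 leaf in CARPO 500 leaf, the strongest class had 36.5% near ends and 34.7% in the rest, and the weakest 10.3% and 10.8%.

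Single ends spread widely in sharing, both between factors and within a factor. Among ends with at least 10 events of the list, the share of NAC33 500 leaf events with a CARPO 500 leaf partner had a median of 19.9%. At the low-coordinate end of chromosome 11 it was 11 of 25 (44%). At the high-coordinate end of chromosome 10 it was 0 of 22, which allows a share of up to 13.6%. The share of NAC03 events with a NAC33 500 leaf partner ran from 0 of 14 at the low-coordinate end of chromosome 8, which allows up to 21.4%, to 12 of 29 (41.4%) at the high-coordinate end of chromosome 15. These limits rest on 3 counts and cover counting error only. The ends named, with 14 to 29 events each, are extremes among 38 or 33 ends. Within a factor, the share ran from 21.4% to 62.1% for NAC33 500 leaf in NAC33 1000 leaf. For CARPO 500 berry in CARPO 500 leaf it ran from 50% to 100%. Whether any of these shares spread beyond counting error was not tested.

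Joining the partners of all lists gave 25101 sites on numbered chromosomes, 4570 of them near ends. CARPO alone was present at 51.3% of end sites (49.8% to 52.7%) and 50.0% of the rest, NAC33 alone at 29.2% (27.9% to 30.5%) and 30.2%, and all 3 factors at 4.42% (3.84% to 5.06%) and 4.35%. Sites seen in leaf lists alone made up 84.1% near ends and 83.4% in the rest, and sites seen in berry lists alone 1.93% and 2.36%. Sites with all 3 NAC33 lists made up 0.832% near ends (0.589% to 1.14%) and 1.17% of the rest, the largest relative gap among the numbers of NAC33 lists.

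The spacing of events was compared within lists. Another event of the same list lay within 500 bp for 11.003% of CARPO 500 leaf end events (9.84% to 12.3%) and 11.6% of the rest, for 3.57% of NAC33 500 leaf end events (2.51% to 4.91%) and 4.89% of the rest, and for 7.29% of NAC03 end events (5.52% to 9.40%) and 6.92% of the rest. In these 3 lists the interval near ends held the value of the rest. NAC33 500 berry had such a neighbour for 1.85% of end events (0.225% to 6.53%) and 4.63% of the rest, and its median distance to the nearest event was 301 kb near ends and 184 kb in the rest.

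In 6 of the 7 pairs, the interval near ends of the share of partners within 3 bp of each other held the value of the rest. The exception was CARPO 1000 leaf in CARPO 500 leaf, with 61.2% of partners within 3 bp near ends (58.4% to 63.9%) and 55.0% in the rest. This is 1 of 7 such comparisons and has no test. An interval that holds the value of the rest does not show equal closeness. NAC33 500 berry in NAC33 500 leaf had a wider gap on 50 partners, 76.0% (61.8% to 86.9%) against 65.7%. For NAC03 in CARPO 500 leaf the interval barely held it, with 71.8% (67.80% to 75.5%) against 67.84%. The share was lower near ends for NAC33 500 leaf in NAC33 1000 leaf and in CARPO 500 leaf, and for NAC03 in NAC33 500 leaf.

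The strongest end event of 4 lists was a single place. It lay at position 19741325 of chromosome 11 (interval 19741225 to 19741425 as deposited, build not given in the sources used here), 351970 bp from the high-coordinate end. CARPO 500 leaf gave it a strength of 9519.4 (rank 2 in the list), CARPO 1000 leaf 13132 (rank 1), CARPO 500 berry 5018.4 (rank 2) and NAC03 2595.2 (rank 3). No NAC33 list had an event within 100 bp. The nearest NAC33 events lay 65727 bp away in 500 leaf, 92467 bp away in 1000 leaf and 73096 bp away in 500 berry. Strengths cannot be compared between lists, but the ranks place this event among the first 3 of 4 lists.

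NAC33 on leaf DNA had its strongest end event elsewhere, at position 1949733 of chromosome 3, just inside the 2 Mb boundary. It ranked 2 in both NAC33 500 leaf (strength 3129) and NAC33 1000 leaf (strength 2338). Partners ranked 20 in CARPO 500 leaf, 66 in CARPO 1000 leaf, 6 in CARPO 500 berry and 11 in NAC03. NAC33 500 berry had no partner there, and its nearest event lay 425889 bp away.

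The strongest end event of NAC33 500 berry lay at position 19948090 of chromosome 15, 355148 bp from the high-coordinate end, with a strength of 426 and rank 16. Partners ranked 10 in NAC33 500 leaf and 21 in NAC33 1000 leaf. No CARPO or NAC03 list had an event within 100 bp, and the nearest was a CARPO 500 leaf event 13853 bp away. This place was thus held by all 3 NAC33 lists and by no other list.

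Of the 2672 CARPO 500 leaf end events, 16 recurred within 100 bp in all 6 other lists (0.599%, 0.343% to 0.971%), against 0.651% of the rest and a background of 0.641%. The best placed, at position 1904409 of chromosome 18, had a mean rank of 30.2 over the 7 lists. It ranked 32, 12 and 16 in CARPO 500 leaf, 1000 leaf and 500 berry, 38, 60 and 27.5 in NAC33 500 leaf, 1000 leaf and 500 berry, and 26 in NAC03. The next were at 107545 of chromosome 18 (mean rank 391), 21623654 of chromosome 8 (394), 1056891 of chromosome 17 (554) and 23435234 of chromosome 16 (803). The last lay 69356 bp from the high-coordinate end. Because the lists differ in length, percentiles within a list are given for the rest. The chromosome 8 event was at percentile 97.0, 92.3 and 85.8 in CARPO 500 leaf, 1000 leaf and 500 berry, and at 98.3, 98.2 and 79.5 in NAC33 500 leaf, 1000 leaf and 500 berry. The chromosome 17 event was at 98.9, 99.6 and 93.8 in those CARPO lists and at 69.9, 85.6 and 46.6 in those NAC33 lists.

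At the low-coordinate side, the events nearest to a first base were weak or of middle rank. NAC33 1000 leaf had one at position 937 of chromosome 5 (strength 16, percentile 20.1). On chromosome 6, CARPO 500 leaf had one at 8716 (strength 24, percentile 32.4) and CARPO 1000 leaf at 8670 (strength 24, percentile 44.9), which are partners. NAC33 500 leaf had one at 19074 of chromosome 4 (strength 27.2, percentile 49.0). CARPO 500 berry and NAC03 both had theirs at 20664 of chromosome 19 (strengths 13 and 11, percentiles 19.7 and 4.20), and NAC33 500 berry at 83847 of chromosome 6 (strength 16, percentile 46.6). At high-coordinate ends the last event itself set the end, so the nearest event is not informative there.

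Fewer events lay just inside than just outside the 2 Mb boundary in 6 of the 7 lists. In the last 100 kb inside it, over all ends, there were 118 CARPO 500 leaf, 39 NAC33 500 leaf and 38 NAC03 events, against 139, 50 and 52 in the first 100 kb outside. CARPO 500 berry had 36 inside and 35 outside. Their median percentiles were 43.9, 51.7 and 62.8 inside, and 49.3, 51.7 and 50.9 outside.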

How the data were processed

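The deposited files are GEM-named event lists in a 10-column narrowPeak layout without header, with decimal commas and intervals of 201 bp. The submitters' processing notes name fastp 0.21.0 and Bowtie2 2.0, without their roles. The event caller appears only in the file naming, and the genome build, control and filters are not given in the sources used here. Columns 7 to 9 are deposited scores, taken from their values as the authors' event strength, −log10 p and −log10 q. The lists hold no read totals, so depth is unknown.

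Positions were counted from 1. Densities, ranks, partners within 100 bp and exact Clopper-Pearson 95% intervals were computed with Python 3.11.15, pandas 2.3.3, numpy 2.4.6 and scipy 1.17.1, and the density ratio was tested on simulated data. The only difference tested was that between 3 CARPO and 3 NAC33 lists, by an exact permutation, and by an exact sign-flip of pairs as an alternative. The members, comparisons and lists were chosen with earlier results of these data known. Named events are the strongest end event of each list, up to 5 end events present in all 7 lists by best mean rank, and the event nearest a tip. Named ends are the 3 densest and 3 sparsest by mean relative density, and any other was chosen after its values were seen. Alternatives were zones of 1 and 4 Mb, −log10 q of at least 4, merging within 500 bp, lists cut to the length of the shortest, ranking by p, partner distances of 25 and 250 bp, the median over chromosomes and leaving out each chromosome. Sequences, motifs and genes were not analysed here.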

Additional observations from a re-analysis of the deposited data

Results flagged for a closer look

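The end-to-rest density ratio lay on opposite sides of 1 for NAC33 on the 2 DNA sources, with 1.09 in 500 leaf and 1.08 in 1000 leaf against 0.932 in 500 berry. With end zones of 1 Mb all 3 lay above 1, at 1.16, 1.14 and 1.13. On berry DNA, CARPO had a ratio of 1.10 and NAC33 one of 0.932. In the 1000 leaf lists, the median strength percentile of end events minus that of the rest was -0.93 for CARPO and 2.59 for NAC33. Each of these values comes from 1 list, and none of the differences was tested. NAC33 500 berry has 108 end events, and its 95% interval of 0.752 to 1.15 includes the ratios of both NAC33 leaf lists.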

How the results depend on the processing

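Leaving out each chromosome in turn changed no side of 1. The density ratio then ran from 1.13 to 1.18 for CARPO 500 leaf, 1.11 to 1.15 for CARPO 1000 leaf, 1.08 to 1.14 for CARPO 500 berry, 1.07 to 1.11 for NAC33 500 leaf, 1.06 to 1.11 for NAC33 1000 leaf, 0.897 to 0.960 for NAC33 500 berry and 1.09 to 1.15 for NAC03.

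End zones of 4 Mb gave 1.20 for CARPO 1000 leaf, 1.23 for CARPO 500 berry, 1.16 for NAC33 1000 leaf and 1.27 for NAC03, and a sharing difference of 2.14 percentage points for NAC33 500 leaf in 1000 leaf. A −log10 q of at least 4 gave a ratio of 0.971 for CARPO 500 berry and 1.18 for NAC33 500 leaf, and percentile differences of -3.34 for NAC33 500 leaf and -6.99 for NAC33 1000 leaf. Lists cut to their strongest events, as many as the shortest list holds, gave 0.997, 1.02 and 0.899 for CARPO 500 leaf, 1000 leaf and 500 berry, and 0.899 and 0.930 for NAC33 500 and 1000 leaf. Ranking by p moved the NAC33 500 berry percentile difference from -9.85 to 0.205. End zones of 1 Mb put NAC33 500 berry above 1, at 1.13, and turned the CARPO minus NAC33 difference to -0.00664 (exact permutation p = 0.8). That difference was 0.0037 (exact permutation p = 1) at a −log10 q of at least 4 and 0.0512 (exact permutation p = 0.4) with the strongest events.

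The following comparisons were added after seeing the data. Against 2 to 8 Mb from an end, it was 1.02, 1.0 and 0.944 for CARPO 500 leaf, 1000 leaf and 500 berry, 0.974 for NAC33 1000 leaf and 0.953 for NAC03. Against more than 8 Mb, it was 1.43, 1.38 and 1.44 for those CARPO lists, 1.20 and 1.29 for NAC33 500 and 1000 leaf, and 1.49 for NAC03. Low-coordinate ends gave 1.29, 1.28 and 1.33 for CARPO, 1.19 for NAC33 1000 leaf and 1.40 for NAC03. High-coordinate ends gave 1.01, 0.968 and 0.860 for CARPO, 0.968 for NAC33 1000 leaf and 0.835 for NAC03. The cause was not tested for any of these.

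Over single results and settings other than leaving out a chromosome, 42 of 75 density results, 41 of 42 sharing differences and 32 of 35 percentile differences stayed within their tolerance or on their side. These counts do not measure stability. A CARPO minus NAC33 difference of unchanged sign counted as staying however small it became, and the paired setting counted so in advance. NAC33 500 berry with end zones of 1 Mb, at 1.13 against 0.932, also counted, because its wide interval held the value. The replicate block paired CARPO and NAC33 lists by title number and DNA source, and these lists are conditions rather than replicates. Pairing leaves the mean difference at 0.0917 by arithmetic, so this is no separate check. The exact sign-flip permutation p was 0.25, the smallest that 3 pairs allow. No replicate could be left out, because replicates were called together. Unknown depth limits every share, because an event without a partner may have had one that fell short of the deposited threshold.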

Other observations

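Close to the high-coordinate tips, NAC33 on leaf DNA was denser than its own average, a pattern noticed in the data and not tested. In the last 100 kb there were 44 NAC33 500 leaf events on 18 chromosomes, 1.87 times the list's average (95% interval 1.36 to 2.51), and 42 NAC33 1000 leaf events, 1.67 times (1.21 to 2.26). CARPO 500 leaf had 59 events there, 0.992 times its average (0.756 to 1.28), and NAC03 had 20, 1.18 times (0.723 to 1.82). The last event of any list defines the tip, so every tip holds at least 1 event by construction. NAC33 lists set 10 of the 19 tips, CARPO lists 8 and NAC03 1. Without the last 1 kb, the values were 1.59 times (1.12 to 2.19) for NAC33 500 leaf, 1.33 times (0.914 to 1.86) for NAC33 1000 leaf, 0.866 times (0.645 to 1.14) for CARPO 500 leaf and 1.02 times (0.592 to 1.62) for NAC03. At 100 to 200 kb they were 1.57, 1.39, 1.14 and 0.828 times.

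At the low-coordinate tips, which no event defines, the first 100 kb was below average in all 7 lists, from 0.532 times for NAC03 (9 events, 0.243 to 1.01) to 0.893 times for NAC33 500 leaf (21 events, 0.553 to 1.36). All 7 intervals included 1. At 100 to 200 kb the values were 1.28 times for CARPO 500 leaf, 1.32 times for NAC33 500 leaf, 1.67 times for NAC33 1000 leaf and 1.77 times for NAC03.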
